A study of Mus musculus with 6 samples.

Results

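The genes described here are Dbp, Tef, Hlf and Nfil3. They were followed in kidney RNA of male BALB/c mice, an inbred laboratory strain, at 8 weeks of age under a light/dark cycle. All rows of the deposited table that carry these 4 symbols were taken, which gave 22 transcripts of the 128603 transcripts and 51803 symbols listed. The samples form 6 groups of 1 library each, taken every 4 h from ZT0 to ZT20 (zeitgeber time, counted in hours from lights on), and the labels name no treatment or genotype and do not say whether a library holds 1 mouse or several. Since no time has a replicate, the error of every rhythm below comes from the departure of 6 single libraries from a cosine curve, and differences between mice cannot be told apart from time.

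DBP, TEF and HLF are the PAR bZIP factors, named for a region rich in proline and acidic residues next to a basic leucine zipper. They bind the D-box, an element in the promoters of clock genes and of genes for detoxification and metabolism, and activate transcription there. NFIL3, also called E4BP4, is a basic leucine zipper protein that binds the same element and represses. Transcription of Dbp is driven through E-boxes by CLOCK and BMAL1 and held back by the period and cryptochrome proteins, while Nfil3 is repressed by the REV-ERB receptors through ROR elements. In liver and kidney of mice this pair of opposed activities gives D-box genes a daily peak.

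The promoter windows of the 4 genes in RefSeq (build GRCm38.p6, from 250 bases before to 50 bases after an annotated start, 5 windows for the 4 genes) were searched on both strands for the elements named above. The E-box CACGTG was found in both windows of Tef, which has 2 annotated starts, and 7.15% of the 32851 windows of all genes hold it. The ROR element was searched as the loose pattern TNGGTCA (its reverse complement where the match is on the other strand). This pattern was found in the window of Nfil3 and in the second window of Tef (11% of all windows). Any base was allowed at N, which reads A in Nfil3 and T in Tef, so the Tef letters match the loose pattern only. The cAMP response element TGACGTCA was found in the window of Hlf (1.79%). The D-box TTANGTAA (2.32%) and the E-box variant CACGTT (4.68%) were in none of the 5 windows, and the window of Dbp held none of these letters. A match is a description of the letters and not a bound site. The stretches are shown because the starts of Tef are compared by level below and because the genes divide into a day and a night group. Capitals mark the matched letters, and each sequence is on the strand of its gene.
Tef, first start, chr15:81802534-81802563, forward strand: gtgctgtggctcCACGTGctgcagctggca
Tef, second start, chr15:81811164-81811413, forward strand: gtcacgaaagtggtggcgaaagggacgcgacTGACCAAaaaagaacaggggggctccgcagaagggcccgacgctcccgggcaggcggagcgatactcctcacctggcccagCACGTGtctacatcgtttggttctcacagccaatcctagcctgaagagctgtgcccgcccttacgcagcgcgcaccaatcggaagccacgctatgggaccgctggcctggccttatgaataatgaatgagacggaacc
Hlf, chr11:90390908-90390937, reverse strand: ggtgcgggcccTGACGTCActcttgtcagg
Nfil3, chr13:52981033-52981062, reverse strand: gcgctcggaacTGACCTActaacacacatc
Dbp, chr7:45704997-45705087, forward strand: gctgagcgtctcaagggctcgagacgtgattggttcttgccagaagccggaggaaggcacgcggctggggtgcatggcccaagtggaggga
Counted from the RefSeq starts, the E-box of Tef begins 127 bases before the first start and 138 bases before the second, the ROR element of Nfil3 12 bases before its start and the cAMP response element of Hlf 9 bases before its start. GENCODE, whose transcripts were measured, places some starts elsewhere. The first E-box of Tef begins 125 bases inside its transcript Tef-202, and the ROR element of Nfil3 begins 22 bases inside Nfil3-201, so neither lies upstream of the measured transcript. Tef-201 begins at the second RefSeq start of Tef. The stretch shown for Dbp is the part of its window that lies upstream of every exon of the gene in GENCODE.

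Levels are given in FPKM, a fragment count divided by transcript length and by the mapped total, which allows a comparison between genes of different length. The number of reads behind each value is unknown, since the deposited values are normalised. The tissue carried the markers of kidney: the 5 proximal tubule markers summed to between 1400 and 1600 FPKM in each library. Of the 4 adrenal markers, Cyp11b1, Cyp11b2 and Th were listed at 0 in every library, and Star stood between 0.122 and 0.243 FPKM. Transcripts of the mitochondrial genome took between 22.2% and 28.6% of the summed FPKM. In whole kidney, fewer cells of a type and less RNA per cell cannot be told apart.

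Dbp had the widest daily range of the 4 genes. Its summed level was 2.66 FPKM at ZT0, 18.4 at ZT4, 65.9 at ZT8, 36.1 at ZT12, 5.07 at ZT16 and 2.54 at ZT20. The day libraries from ZT4 to ZT12 all stood above the other libraries, and the ratio of the highest to the lowest was 25.9. The climb began early, with a 6.94-fold step from ZT0 to ZT4 and a 3.58-fold step from ZT4 to ZT8. The steepest fall, 7.12-fold, lay between ZT12 and ZT16.

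A 24 h cosine was fitted to log2(FPKM + 1) of the summed transcripts of every symbol whose mean reached 1 FPKM. Dbp rose and fell with an amplitude of 2.30 ± 0.15 (SE, log2 scale from mean to peak, n = 6 libraries) and a peak at ZT8.8 ± 0.246 h (moderated F test of limma with Benjamini-Hochberg adjustment over all symbols, adjusted p = 0.029). Of the 12709 symbols tested, 36 (0.283%) passed this adjusted threshold of 0.05 and 19.1% had an unadjusted p under 0.05. With any 1 library left out the 36 became 0 to 4, and without ZT20 the 2428 symbols with an unadjusted p under 0.05 became 1160. The amplitude of Dbp ranked 8 among the 12709 symbols. The exact permutation p of its fit over the 60 circular orders of the libraries was 0.0167, the smallest that they allow. The call of Dbp ended when ZT0, ZT4, ZT8 or ZT12 was left out (limma adjusted p between 0.0559 and 0.127), with amplitudes between 2.19 and 2.32.

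Tef, an activator at the D-box like Dbp, moved far less and from a higher floor. Its level was 36.7 FPKM at ZT0, 52.3 at ZT4, 70.8 at ZT8, 68.2 at ZT12, 40.2 at ZT16 and 28.5 at ZT20. The libraries at ZT8 and ZT12 stood highest and close together, and the ratio of the highest to the lowest was 2.48. The fitted amplitude was 0.65 ± 0.05 (SE, n = 6 libraries) with a peak at ZT8.9 ± 0.313 h (limma adjusted p = 0.0326, exact permutation p = 0.0167). The call was lost when any 1 library was left out (limma adjusted p between 0.0575 and 0.214).

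Hlf was the flattest of the 3 activators. Its level was 39.1 FPKM at ZT0, 43.3 at ZT4, 53.7 at ZT8, 61.1 at ZT12, 43.3 at ZT16 and 40.2 at ZT20. The highest library was that of ZT12, and apart from ZT8 the others lay between 39.1 and 43.3 FPKM. The fitted amplitude was 0.30 ± 0.06 (SE, n = 6 libraries) with a peak at ZT10.5 ± 0.742 h, and Hlf did not pass over all symbols (limma unadjusted p = 0.00534, adjusted p = 0.146, exact permutation p = 0.0333).

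Nfil3 (ENSMUSG00000056749, chr13:52967209-52981073 in GRCm38, reverse strand), the repressor, ran opposite to the activators. Its single transcript was at 5.47 FPKM at ZT0, 1.22 at ZT4, 0.597 at ZT8, 2.34 at ZT12, 4.88 at ZT16 and 13.5 at ZT20. The ZT20 library stood well above the rest and the ZT8 library lowest, a ratio of 22.7. The fitted amplitude was 1.46 ± 0.14 (SE, n = 6 libraries) with a peak at ZT19.7 ± 0.366 h (limma adjusted p = 0.0423, exact permutation p = 0.0333). The call was kept without ZT16 and lost without each other library (limma adjusted p between 0.1 and 0.207).

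**Figure D1:**
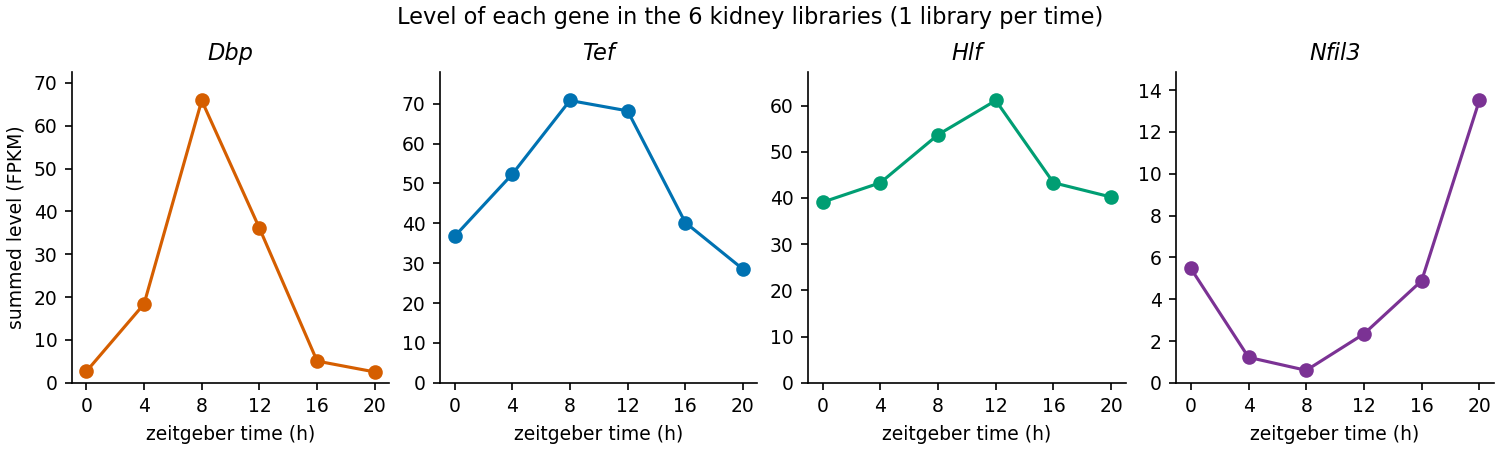
Summed FPKM of Dbp, Tef, Hlf and Nfil3 (vertical axis, from 0, own scale per gene) against zeitgeber time in hours (horizontal axis), with 1 point per library and no error bar because each time has 1 library. Dbp goes from 2.54 to 65.9 FPKM and Tef from 28.5 to 70.8 FPKM with their highest library at ZT8, Hlf is highest at ZT12 with 61.1 FPKM, and Nfil3 is lowest at ZT8 with 0.597 FPKM and highest at ZT20 with 13.5 FPKM.

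Markers of podocytes, endothelium, smooth muscle and fibroblasts, blood and immune cells stood highest in the ZT16 and ZT20 libraries. Nfil3 was also highest at ZT20, followed by ZT0 (5.47 FPKM) and ZT16 (4.88 FPKM). In the ZT0 library the podocyte markers (35.3 FPKM) and immune markers (3.22 FPKM) were highest after those of ZT20 and ZT16. Blood markers stood there at 150 FPKM and those of smooth muscle and fibroblasts at 8.41 FPKM. The endothelial markers summed to 28.3 FPKM in that library, near their lowest. The summed level of the 3 podocyte markers, none at 0, was 64.5 FPKM at ZT20 and 49.0 FPKM at ZT16 against 20.7 to 35.3 FPKM at the other times. The 3 endothelial markers, none at 0, summed to 49.9 FPKM in the ZT20 library against 27.3 FPKM at ZT8, and the 2 immune markers, none at 0, to 3.78 and 2.39 FPKM at those times. The 3 markers of smooth muscle and fibroblasts, none at 0, summed to 13.2 FPKM at ZT20 and between 5.74 and 9.28 FPKM elsewhere. The 2 blood markers, none at 0, summed to 273 FPKM at ZT16 and 260 FPKM at ZT20, and to 108 FPKM at ZT8. Nfil3 itself had its lowest library at ZT8 and its highest at ZT20, a ratio of 22.7. The part of these cells in the Nfil3 result was not tested. Beside the activators, the 2 adipose markers summed to 1.22 FPKM at ZT8, the highest library of Dbp and Tef. At the other times they summed to at most 0.0432 FPKM. The sum of the 2 thick ascending limb markers, none at 0, ran from 898 FPKM at ZT4 to 1350 FPKM at ZT12, the highest library of Hlf. The part of these cells in the results of the activators was not tested either.

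**Figure D2:**
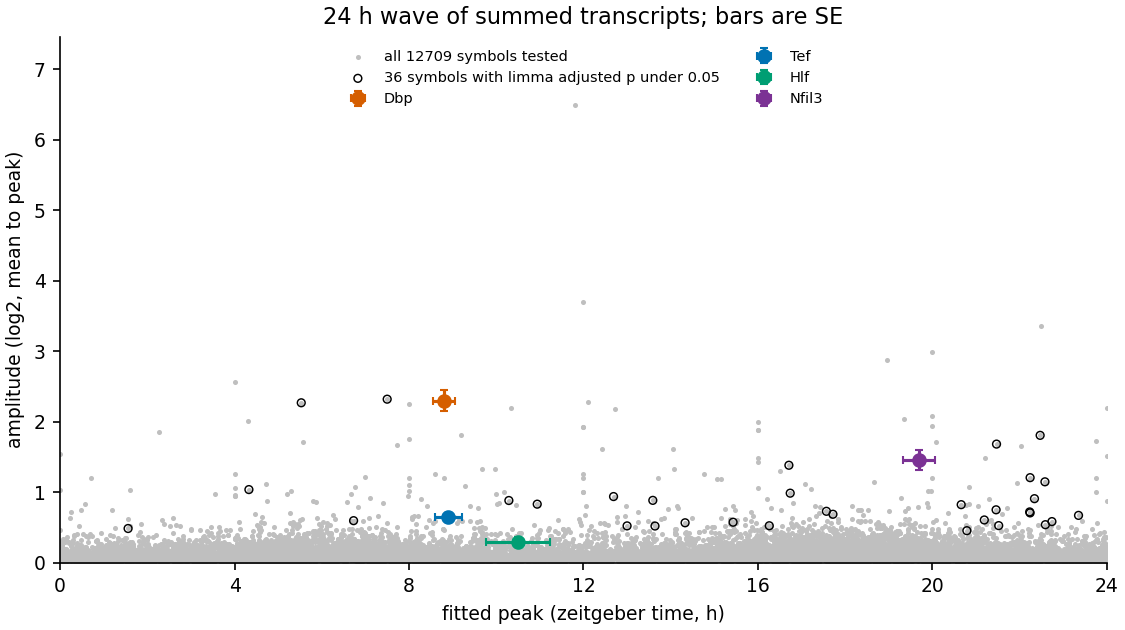
Amplitude of the 24 h wave (log2 scale, mean to peak, vertical axis) against the fitted peak in zeitgeber hours (horizontal axis) for the 12709 symbols tested, as grey dots. Black rings mark the 36 symbols with limma adjusted p under 0.05, and coloured points with SE bars mark Dbp at ZT8.8, Tef at ZT8.9, Hlf at ZT10.5 and Nfil3 at ZT19.7, in falling order of amplitude Dbp (2.30), Nfil3 (1.46), Tef (0.65) and Hlf (0.30).

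The question whether the genes differ from one another in their daily course was put to the log2 ratio of each pair of members, taken as the difference of log2(FPKM + 1). A 24 h cosine was fitted to each ratio and tested by an exact two-sided permutation over the 60 circular orders, adjusted by Benjamini-Hochberg over the 6 pairs. The pairs share members, so they are not independent. Dbp exceeded Hlf most at ZT8.6, with a ratio that ran from -3.54 at ZT20 to 0.29 at ZT8 on the log2 scale (amplitude 2.03, exact permutation p = 0.0167, adjusted p = 0.0333). Tef also moved against Hlf, from -0.48 at ZT20 to 0.39 at ZT8 (amplitude 0.40, peak at ZT7.6, adjusted exact permutation p = 0.0333). With the most abundant transcript of each gene in place of the sum, this amplitude was 0.64 (adjusted exact permutation p = 0.025). For Dbp against Tef the amplitude was 1.65 and the peak ZT8.8, and the pair did not pass (exact permutation p = 0.05, adjusted p = 0.05). Its log2 ratio ran from -3.37 at ZT0 to -0.10 at ZT8.

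The ratio of each activator to Nfil3 had a 24 h wave. The ratio of Dbp to Nfil3 ran from -2.04 at ZT20 to 5.39 at ZT8 (log2 scale, amplitude 3.72, peak at ZT8.4, adjusted exact permutation p = 0.0333). For Tef and Hlf the amplitudes of this ratio were 2.09 and 1.70, with peaks at ZT8.0 and ZT8.1 (adjusted exact permutation p = 0.04 for both). Nfil3 alone had an amplitude of 1.46, so such a ratio would move even with a flat activator and cannot show that the activator moved. Hlf alone had an amplitude of 0.30 and did not pass (limma adjusted p = 0.146). Leaving out ZT0, ZT4, ZT8 or ZT12 ended all 5 of the called pairs, with adjusted exact permutation p between 0.05 and 0.12, and leaving out ZT16 ended Dbp against Hlf (0.06). Without ZT20 the pair of Dbp and Tef passed as well (amplitude 1.97, adjusted exact permutation p = 0.025).

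In summed FPKM the balance of activators to repressor followed the same course. Dbp, Tef and Hlf together were at 78.4 FPKM at ZT0, 114 at ZT4, 190 at ZT8, 165 at ZT12, 88.5 at ZT16 and 71.3 at ZT20. Their ratio to Nfil3 was 14.3 at ZT0, 93.3 at ZT4, 319 at ZT8, 70.7 at ZT12, 18.1 at ZT16 and 5.26 at ZT20. The value at ZT8 divides by a low Nfil3 level, 0.597 FPKM in 1 library, so its size is uncertain. At no time did the RNA of Nfil3 exceed that of the 3 activators. Nfil3 exceeded Dbp alone at ZT0 and ZT20, with 13.5 against 2.54 FPKM at ZT20. The make-up of the activators changed as well. Dbp held 3.38% of their sum at ZT0 and 34.6% at ZT8, while Hlf held 49.8% and 28.2% and Tef 46.8% and 37.2%.

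**Figure D3:**
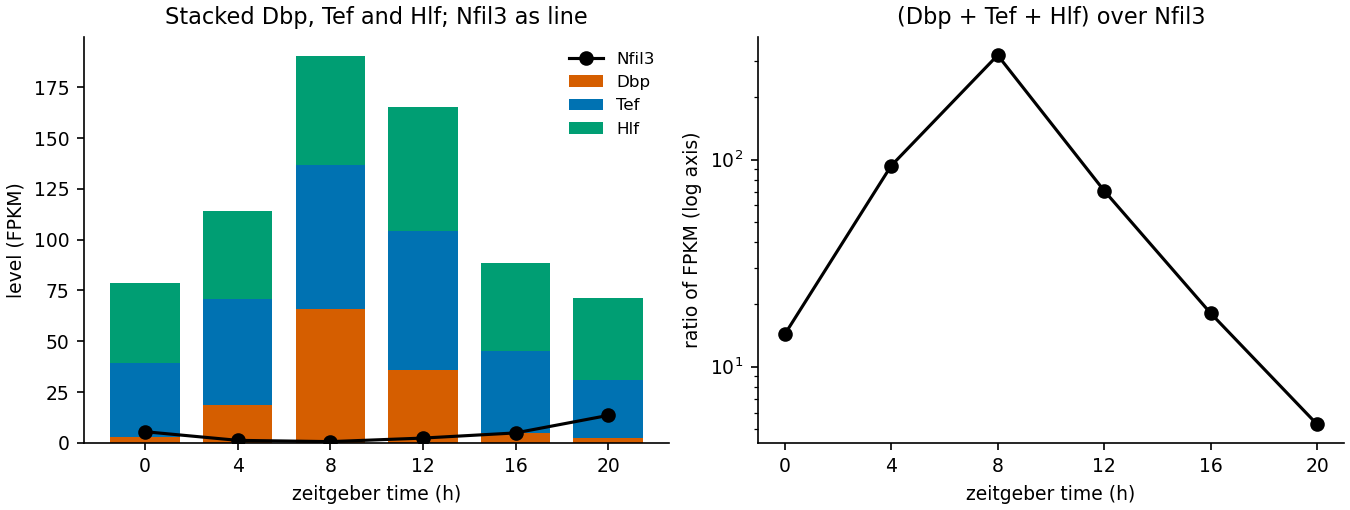
Left, FPKM of Dbp, Tef and Hlf as stacked bars and of Nfil3 as a black line against zeitgeber time in hours. Right, the ratio of the summed activators to Nfil3 on a log axis. It rises from 14.3 at ZT0 to 319 at ZT8 and falls to 5.26 at ZT20. Each point is 1 library, and the ratio at ZT8 divides by 0.597 FPKM of Nfil3.

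Of the 22 transcripts, 12 reached a mean of 1 FPKM and entered a fit of 21596 single transcripts. None of these transcripts passed the adjusted threshold (limma, 0 called, 0.0% of those tested), and 11 of the 12 members had an unadjusted p under 0.05, against 15.2% of all transcripts tested (3277, and 1793 without ZT20). Ordinary least squares called 2 of the 21596 transcripts. The timing below is therefore a description of single transcripts whose rhythm did not pass over all transcripts. The other 10 transcripts stayed at or below 1.80 FPKM in every library.

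Dbp (ENSMUSG00000059824) occupies chr7:45705088-45710203 in GRCm38, forward strand. Dbp-201, the full-length coding transcript, was at 1.41 FPKM at ZT0, 11.7 at ZT4, 50 at ZT8, 27.8 at ZT12, 3.22 at ZT16 and 1.49 at ZT20, and held between 53.1% and 77.1% of the gene. The coding transcript Dbp-204 was at 6.71 FPKM at ZT8 and 6.39 FPKM at ZT12 and between 0.467 and 1.53 FPKM at the other times. Dbp-205, annotated as a retained intron, was at 3.42 FPKM at ZT4, 7.54 FPKM at ZT8 and 1.27 FPKM at ZT12, so at ZT12 it stood well below its highest library while Dbp-204 stood close to it. Its fitted peak was at ZT7.1 ± 0.635 h against ZT8.9 ± 0.294 h for Dbp-201 and ZT9.6 ± 0.521 h for Dbp-204. The transcripts with a retained intron together held 27.2% of the gene at ZT0, 28.3% at ZT4, 13.8% at ZT8, 5.22% at ZT12, 17.5% at ZT16 and 22.9% at ZT20. Their share was lowest at ZT12 and was high in the libraries in which Dbp was lowest as well as at ZT4. The difference in timing between the transcripts was not tested.

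The 3' end of Dbp overlaps Sphk2, a sphingosine kinase gene on the reverse strand that begins at 45709467. The libraries are strand-specific per the labels, but whether strand was used in the estimation is not given, so reads of the overlap cannot be told apart. Sphk2 stayed between 8.80 and 13.4 FPKM, with its lowest level at ZT8, where Dbp was highest.

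Tef (ENSMUSG00000022389) occupies chr15:81802421-81826863 in GRCm38, forward strand, and has 10 transcripts, which were grouped by where they begin: 5 near the first start, 3 near the second and 2 further inside the gene. The transcripts in a group do not share 1 exact start, and the main ones are Tef-202, which begins at 81802421, and Tef-201, which begins at 81811414. Its transcripts from the first start summed to 25.6 FPKM at ZT0, 40.4 at ZT4, 48.9 at ZT8, 47.7 at ZT12, 24.8 at ZT16 and 17.3 at ZT20. Those from the second start were at 8.09, 7.47, 16.6, 16.6, 11.4 and 8.58 FPKM at the same times. The sum of the first start was higher at ZT4 than at ZT0 and that of the second was not, and the share of the second start in the gene was lowest at ZT4 with 14.3% and highest at ZT20 with 30.1%. The main coding transcript of the first start, Tef-202, had its fitted peak at ZT8.7 ± 0.391 h, and that of the second, Tef-201, at ZT11.5 ± 0.735 h. Tef-203, annotated as a retained intron from the first start, was highest at ZT4 with 13.5 FPKM and had its fitted peak at ZT7.5 ± 0.584 h. Whether the starts differ in time was not tested. The first window of Tef overlaps the antisense gene Gm17597. It was listed between 1.16 and 1.18 FPKM at ZT4, ZT8 and ZT12 and between 0.687 and 0.743 FPKM at the other times. The first-start sum of Tef was highest in the same libraries, and the part of shared reads was not tested.

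Hlf (ENSMUSG00000003949) occupies chr11:90336536-90390895 in GRCm38, reverse strand. The coding transcript Hlf-201 was at 25.1 FPKM at ZT0, 25.9 at ZT4, 29.0 at ZT8, 40.5 at ZT12, 31.6 at ZT16 and 29.8 at ZT20. It was highest at ZT12, with a fitted peak at ZT13.3 ± 0.973 h. Hlf-202, a processed transcript with no annotated protein, ranged from 2.74 FPKM at ZT20 up to 9.19 FPKM in the ZT4 library, with a fitted peak at ZT6.7 ± 0.55 h. Hlf-203, also a processed transcript, had a mean of 7.86 FPKM against 5.82 FPKM for Hlf-202. It was highest at ZT12 with 11.2 FPKM, like Hlf-201, with a fitted peak at ZT13.6 ± 2.43 h (limma unadjusted p = 0.36). The transcripts of Hlf thus stood highest in different libraries, and the sum over them had its peak between those of Hlf-202 and Hlf-201.

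The level of Hlf at ZT8 rested in part on Hlf-205, a transcript of 245 bases that reached 10 FPKM at ZT8 and stayed between 0 and 2.55 FPKM at the other times. It held 18.7% of the gene at ZT8 and at most 4.17% elsewhere. Without transcripts shorter than 300 bases, an alternative added after the values were seen, the amplitude of Hlf was 0.23 with a peak at ZT11.6 (limma adjusted p = 0.209). With protein-coding transcripts only, also added later, it was 0.27 with a peak at ZT13.2 (limma adjusted p = 0.135). Dbp, Tef and Nfil3 passed under both alternatives (limma adjusted p between 0.00645 and 0.0187).

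**Figure D4:**
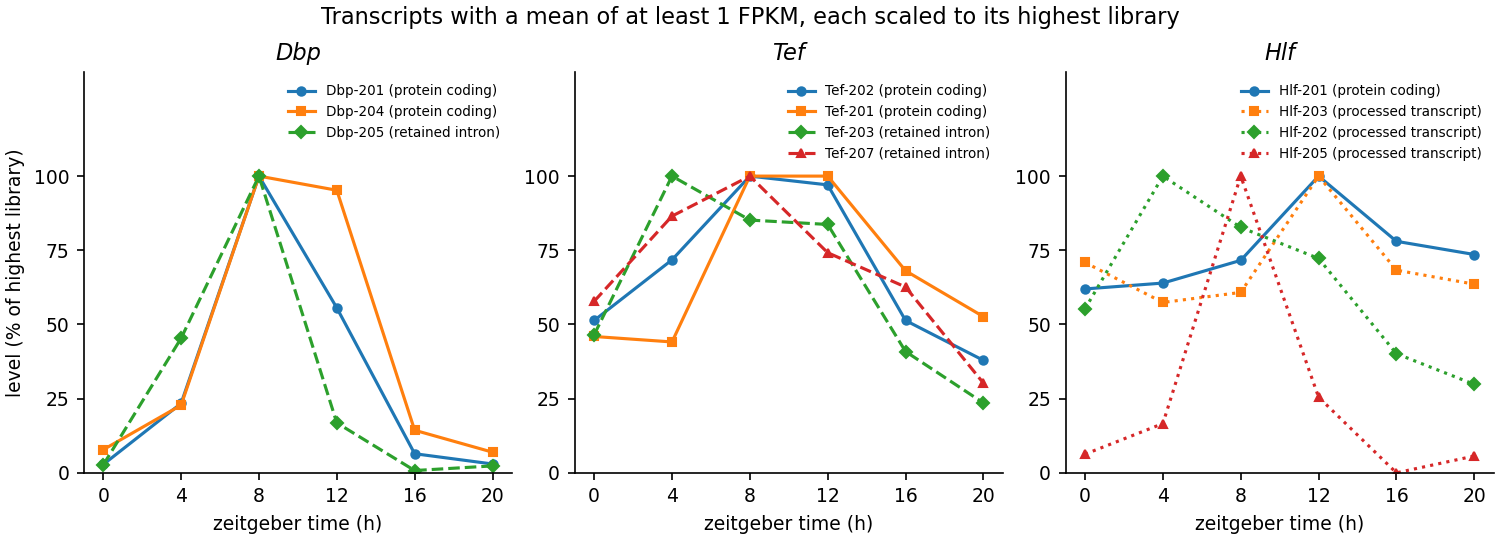
Level of each transcript of Dbp, Tef and Hlf whose mean reached 1 FPKM, in percent of its highest library (vertical axis), against zeitgeber time in hours (horizontal axis); line style gives the annotated type. Dbp-205, with a retained intron, goes from 7.54 FPKM at ZT8 to 1.27 FPKM at ZT12. Tef-203, also with a retained intron, and Hlf-202 are highest at ZT4 with 13.5 and 9.19 FPKM. At ZT12 they stand at 11.3 and 6.64 FPKM. Hlf-201 and Hlf-203 are highest at ZT12 with 40.5 and 11.2 FPKM, and Tef-201 stays near its highest level at ZT12 with 16.3 FPKM.

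The regulators of the 4 genes were read from the same fit. Of 9 genes in this list, all tested, 4 passed over all symbols and all 9 had an unadjusted limma p under 0.05, beside 0.283% and 19.1% of all symbols. With any 1 library left out, 0 to 2 of the 9 passed. Arntl, which encodes BMAL1, the partner of CLOCK that drives Dbp, ranged from 0.371 FPKM (ZT8) to 10.7 FPKM (ZT20), with a fitted peak at ZT21.5 (limma adjusted p = 0.0408). Npas2, a relative of CLOCK, peaked at ZT22.5, and both Arntl and Npas2 were highest in the ZT20 library, before the climb of Dbp. Nr1d1, which encodes the REV-ERBα repressor of Nfil3, peaked at ZT5.5, and its level was 40.0 FPKM at ZT4 and 1.14 FPKM at ZT20 (limma adjusted p = 0.0228). Its paralog Nr1d2 ranged from 6.4 FPKM (ZT20) to 45.9 FPKM (ZT8) and did not pass over all symbols (limma adjusted p = 0.0729). Nfil3 was lowest at ZT8, where Nr1d2 was highest but Nr1d1, at 27.9 FPKM, was already below its ZT4 level. Both REV-ERB genes were lowest at ZT20, where Nfil3 was highest. Cry1, a repressor of the E-box, peaked at ZT16.7 (limma adjusted p = 0.0326) and Per2 at ZT14.1 (limma adjusted p = 0.101), in the hours in which Dbp was falling. Cry2 was highest at ZT12 with 6.64 FPKM (limma adjusted p = 0.151). Whether any of these regulators set the timing of Dbp or Nfil3 in these libraries was not tested.

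Of 11 clock genes with described D-boxes, 9 were tested, 3 passed over all symbols (Nr1d1, Per3 and Cry1) and 8 had an unadjusted limma p under 0.05. Over all symbols these shares were 0.283% and 19.1%. Nr1d1, Nr1d2, Per1, Per2 and Cry1 are also in the list of regulators above, so the counts of these lists overlap. With any 1 library left out, 0 or 1 of the clock genes passed. Per3, a period gene, ranged from 1.1 FPKM (ZT0) to 5.52 FPKM (ZT12), with a peak at ZT10.3 ± 0.3 h (limma adjusted p = 0.0318). Ciart, which represses CLOCK and BMAL1, ranged from 0.123 FPKM (ZT20) to 6.66 FPKM (ZT8), and Per1 from 1.1 FPKM (ZT0) to 5.11 FPKM (ZT12; limma adjusted p = 0.114 and 0.0985). Rora was the tested gene of the list with an unadjusted p above 0.05. The median amplitude over the 9 genes was 1.26, against 0.128 over all symbols tested.

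Genes described as outputs of the PAR bZIP factors in mice moved less. Of 20 genes, 14 were tested and 9 had an unadjusted limma p under 0.05, beside 19.1% of all symbols. Of the 14, only Sgk1 passed the adjusted threshold (limma adjusted p = 0.029), beside 0.283% of all symbols. Sgk1, the aldosterone-induced kinase that raises sodium channel activity, ranged from 7.97 FPKM (ZT4) to 32.0 FPKM (ZT16), with a peak at ZT16.7. With any 1 library left out, 0 of the output genes passed in limma, and 8 to 10 had an unadjusted p under 0.05. Alas1, the first enzyme of haem synthesis, ranged from 45.7 FPKM (ZT0) to 110 FPKM (ZT12), and Por, the electron donor of the microsomal P450 enzymes, from 87.5 FPKM (ZT20) to 143 FPKM (ZT8; limma adjusted p = 0.111 and 0.11). Aqp2, the water channel of the collecting duct, ranged from 82.3 FPKM (ZT4) to 181 FPKM (ZT16; limma adjusted p = 0.0646). The 4 collecting duct markers summed to between 134 FPKM (ZT4) and 236 FPKM (ZT16). Aqp2 is one of them and holds most of that sum, so the sum gives no separate measure of collecting duct content. The part of collecting duct content in the values of Aqp2 was not tested. Gsta3, a glutathione transferase, ranged from 15.5 FPKM (ZT4) to 31.4 FPKM (ZT20; limma adjusted p = 0.0837). Cyp2a4 and Cyp2a5, steroid and xenobiotic hydroxylases with near-identical sequence whose reads may be shared, were both highest at ZT12 and lowest at ZT4 (limma adjusted p = 0.0729 and 0.171). The 9 genes with an unadjusted p under 0.05 had their fitted peaks between ZT8.2 and ZT17.5, and the median amplitude over the 14 was 0.345.

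The C/EBP proteins are basic leucine zipper factors that can bind sites like the D-box. Of 6 genes in that list, 5 were tested, 0 passed over all symbols (limma, and 0 by ordinary least squares) and 3 had an unadjusted limma p under 0.05. Over all symbols the limma shares were 0.283% and 19.1%. Ddit3, a stress-induced member, ranged from 2.7 FPKM (ZT4) to 9.74 FPKM (ZT16), and Cebpa from 6.97 FPKM (ZT4) to 11.9 FPKM (ZT20; limma adjusted p = 0.178 and 0.161). Cebpg stood between 12.2 FPKM (ZT0) and 18.5 FPKM (ZT16), and Cebpb between 6.93 FPKM (ZT4) and 23.5 FPKM (ZT20; limma adjusted p = 0.224 and 0.285).

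**Figure D5:**
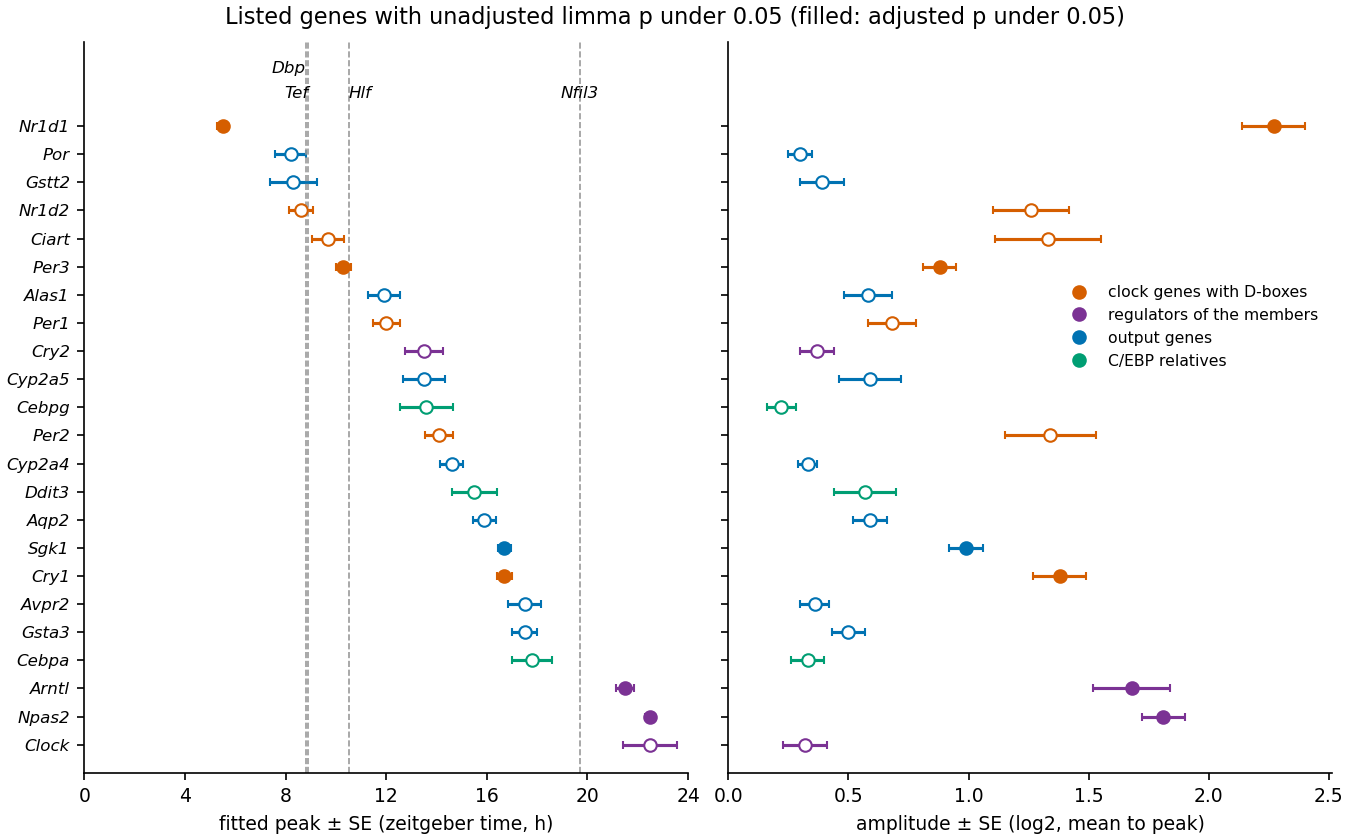
Fitted peak in zeitgeber hours (left) and amplitude on the log2 scale (right), each with its SE, for all but 1 of the 24 listed genes with an unadjusted limma p under 0.05, ordered by peak; colours give the list (a gene in several lists has the colour of the first) and filled points have an adjusted p under 0.05. Dashed lines mark the peaks of Dbp (ZT8.8), Tef (ZT8.9), Hlf (ZT10.5) and Nfil3 (ZT19.7).

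The genes most like each member in daily course were taken by Pearson's r of log2(FPKM + 1) over the 6 libraries among 7805 named genes whose mean reached 5 FPKM, as a description of profiles that share their libraries. Nearest to Dbp were Cept1 (r = 0.9994), an enzyme of phospholipid synthesis, Cpeb3 (r = 0.9947), which binds messenger RNA, and Denr (r = 0.9932), a factor of translation. They shared its shape on a far smaller scale, with amplitudes of 0.16, 0.48 and 0.17, and none passed over all symbols (limma adjusted p between 0.062 and 0.197). Nearest to Tef were Mrps5, Ipo5 and Slc6a20a (r between 0.9908 and 0.9932), and nearest to Hlf were Ptgfr, Trak1 and Pex7 (r between 0.9778 and 0.984). Nearest to Nfil3 were Pop7, Mbd3 and Zfp219 (r between 0.9935 and 0.9961), all highest at ZT20 and lowest at ZT8. Among the members, Tef ranked 13 in likeness to Dbp (r = 0.968) and Hlf ranked 200 (r = 0.865), while Nfil3 ran against Dbp (r = -0.894) and Tef (r = -0.915) and less closely against Hlf (r = -0.612).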

How the data were processed

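Kidney RNA was sequenced in 6 libraries, 1 per time. The authors deposited FPKM values per Ensembl transcript, per the file headers, with the transcript length in bases, a property listed beside the FPKM. The submitters' processing notes name bcl2fastq 2.20 and mm9. Which aligner and estimator were used is not given in the sources used here. Of 127971 transcripts matched to GENCODE M21, 126365 (98.75%) lay inside the deposited locus within 2 bases, so positions are on GRCm38. The read depth of a library is unknown and intervals from it were not computed.

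From these values the transcripts of each symbol were summed, and 12709 symbols whose mean reached 1 FPKM were fitted on log2(FPKM + 1), a scale that understates changes of low genes. Cosine and sine terms of 24 h were tested with limma 3.58.1 in R 4.3.3 (trend, 3 residual degrees of freedom) and adjusted by Benjamini-Hochberg over all symbols, with a threshold of 0.05. Single transcripts were fitted in the same way. Other steps used Python 3.11.15, numpy 2.4.6, pandas 2.3.3 and matplotlib 3.10.9. The members, lists and tests were chosen with earlier results of these data known. All members were named. Of the lists, genes past the adjusted threshold and up to 4 more with the smallest limma p were named, and for each member the 3 nearest genes by r. The values of 1 gene that this rule names are not reported here. Ciart, Rora, Alas1 and Cyp2a5 were named outside that rule after their values were seen. Hlf-205, the neighbours of the members and the grouping of transcripts by start and type were also chosen after values were seen. Promoter sequences are from RefSeq, and 4 of 4 members matched.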

Additional observations from a re-analysis of the deposited data

How the results depend on the processing

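No wave changed direction. Peaks moved little for Dbp (ZT8.6 to ZT9.2), Tef (ZT8.6 to ZT9.4) and Nfil3 (ZT19.2 to ZT20.0). On log2(FPKM + 0.1) the amplitude was 1.96 for Nfil3 in place of 1.46, 2.53 for Dbp, 0.66 for Tef and 0.31 for Hlf. The ratios to Nfil3 then had amplitudes of 4.43 (Dbp), 2.6 (Tef) and 2.19 (Hlf). The peak of Hlf moved from ZT10.5 to ZT13.3 with the most abundant transcript, ZT13.2 with coding transcripts only and ZT11.6 without short transcripts. The count of 36 symbols at limma adjusted p under 0.05 became 0 with no minimum level, 7 without trend, 66 with robust moderation, 2 by ordinary least squares, 2 with the most abundant transcript, 107 without transcripts under 300 bases and 129 with protein-coding transcripts only (the last 2 settings were chosen after seeing the data). With no minimum, Dbp, Tef and Nfil3 kept amplitudes of 2.30, 0.65 and 1.46 (limma adjusted p = 0.197, 0.197 and 0.258), and by ordinary least squares the same amplitudes had adjusted p = 0.311, 0.29 and 0.318. With the most abundant transcript these 3 genes had 2.38, 0.68 and 1.46 (limma adjusted p = 0.0507, 0.068 and 0.068), and without trend Tef (0.65) and Nfil3 (1.46) had limma adjusted p = 0.0631 and 0.0732. Hlf passed under none of 17 alternatives (adjusted p between 0.115 and 0.437), and Nfil3 has no value at a minimum of 5 FPKM. Of the 32 listed genes tested, 6 passed, against 0 with no minimum or ordinary least squares, 2 with the most abundant transcript, 12 without short transcripts and 13 with coding transcripts. Ordinary least squares called 2 single transcripts in place of 0. The 3277 single transcripts with an unadjusted p under 0.05 became 6004 with no minimum and 1829 at a minimum of 5 FPKM. With the most abundant transcript the amplitude of Tef over Hlf was 0.64 in place of 0.40.

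With 1 library left out, the count of symbols ran from 0 to 4 and of listed genes from 0 to 2. Amplitudes ran from 2.19 to 2.58 for Dbp, 0.61 to 0.70 for Tef, 0.23 to 0.33 for Hlf and 1.27 to 1.63 for Nfil3. For the pairs they ran from 1.5 to 1.97 (Dbp over Tef, which passed without ZT20), 1.9 to 2.28 (Dbp over Hlf), 3.62 to 3.81 (Dbp over Nfil3), 0.32 to 0.44 (Tef over Hlf), 1.85 to 2.22 (Tef over Nfil3) and 1.53 to 1.79 (Hlf over Nfil3). Fewer libraries leave fewer residual degrees of freedom. The cause of the other changes was not tested. No paired analysis was possible because each time has 1 library and the labels give no replicate numbers. Depth is unknown, so no limit from it can be stated.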
